A study of Mus musculus with 8 samples.

Results

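Mitochondrial ribosomal protein genes were described here by the ASH2L binding sites at their promoters. The genes were chosen by symbol, as every protein-coding gene of the GENCODE mouse annotation named Mrpl or Mrps followed by a number and, where present, a letter. There were 78 such genes among 21938 protein-coding genes. A promoter site of a gene was a site of the deposited list that was centred within 1 kb of any annotated transcription start site (TSS) of that gene. By this rule 32 of the 78 genes had a site (41.0%, Wilson 95% interval 30.8 to 52.1%), against 14.0% of all protein-coding genes (3078 of 21938). Wilson intervals here cover counting error only.

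The sites came from ChIP-seq of immortalised mouse embryo fibroblasts (iMEF), in which DNA bound by ASH2L was precipitated and sequenced. The 8 libraries formed 4 groups of 2 replicates: ASH2L precipitates without dTAG, ASH2L precipitates after 1 h of dTAG, and an input library without antibody for each of these conditions. All groups shared the same cell background. The cells carried human ASH2L fused at its N-terminus to the FKBP12 F36V degradation tag and HA epitopes from a lentiviral construct, a Cre-ER transgene, and deleted endogenous Ash2l alleles, and they were grown as selected clones, so that results stand for 1 or few clones and for a transgene-driven ASH2L level. dTAG-13 is a small molecule that joins the FKBP tag to a ubiquitin ligase and so leads to degradation of the fusion protein. The labels do not name the clone used for each library. The list holds 1 set of 6444 sites over all samples, of which 6428 lie on the 21 assembled chromosomes, and gives positions only. It has no read count, height or value per sample, so from this list the depth is unknown, the replicate spread and the effect of dTAG could not be measured, and the labelled cell type could not be checked against marker genes. A separate list of significantly changed sites after 1 h of dTAG, described by the authors, was not used here. A gene without a site is therefore a gene without an entry in the list, not a gene shown to be free of ASH2L.

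ASH2L is a core subunit of the KMT2 complexes, which methylate lysine 4 of histone H3, a mark of active promoters. The mitochondrial ribosome translates the few messages encoded by mitochondrial DNA, all of them for subunits of the respiratory chain and ATP synthase. Its ribosomal RNAs are made in the mitochondrion, while its proteins are encoded in the nucleus, translated in the cytosol and imported. Some of these proteins have a counterpart in bacterial ribosomes, and others were added during the evolution of mitochondria. Many promoters of nuclear genes for mitochondrial proteins are known to carry binding motifs of ETS factors, NRF1 and YY1.

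Promoter sequences are given here for 7 of the bound genes. For 6 of them the stretch was chosen after its matches were seen, because it holds a motif, and that of Mrpl11 holds none. Of the 30 exon-free stretches within the sites, 19 held none of the 8 motifs searched, so the sequences shown do not represent all sites. Each is the stretch within the ASH2L site that lies upstream of a TSS of the gene and holds no annotated exon. It is written 5′ to 3′ on the strand of the gene, from GRCm38.p6, the assembly of mm10. Capitals mark a match, on either strand, to the ETS core CCGGAAG, the SP core CCCGCCC or the ZBTB33 motif TCTCGCGAG. The following 3 genes had sites centred within 4 bp of a TSS. The stretch of Mrpl58, which encodes a peptidyl-tRNA hydrolase built into the large subunit, lies on the plus strand at chr11:115403627-115403751. That of Mrpl15, a large subunit protein with a bacterial counterpart, lies on the minus strand at chr1:4785740-4785860. That of Mrpl48 lies on the minus strand at chr7:100583111-100583239, upstream of an internal TSS of the gene.
Mrpl58: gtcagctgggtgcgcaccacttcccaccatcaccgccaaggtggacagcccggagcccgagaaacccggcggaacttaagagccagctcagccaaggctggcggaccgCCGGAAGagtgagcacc
Mrpl15: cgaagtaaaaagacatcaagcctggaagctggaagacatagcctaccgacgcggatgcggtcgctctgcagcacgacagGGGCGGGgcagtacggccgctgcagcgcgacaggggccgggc
Mrpl48: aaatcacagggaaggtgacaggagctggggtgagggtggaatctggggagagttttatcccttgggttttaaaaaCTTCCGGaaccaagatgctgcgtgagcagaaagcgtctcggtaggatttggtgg

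A further 3 stretches lie between the start sites of a pair of genes that are transcribed away from each other. The stretch between Mrpl40 and Hira is on the minus strand at chr16:18876933-18877036, and the site over it was centred on the side of Hira. The stretch between Ptcd2 and Mrps27 is on the plus strand at chr13:99344706-99344785, and its site was centred on the side of Ptcd2. The stretch between Helq and Mrps18c, on the plus strand at chr5:100798599-100798626, is the shortest shown, and the site over it covered the start sites of both genes.
Mrpl40: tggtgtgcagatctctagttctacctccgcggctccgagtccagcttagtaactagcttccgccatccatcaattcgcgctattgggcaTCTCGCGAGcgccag
Mrps27: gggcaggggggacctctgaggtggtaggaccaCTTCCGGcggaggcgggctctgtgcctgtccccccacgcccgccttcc
Mrps18c: gtgaCTTCCGGcccgggaagcgcgggaa

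The stretch of Mrpl11, a large subunit gene with no divergent partner, lies on the plus strand at chr19:4962071-4962146, upstream of the first annotated start, and is shown as a stretch without a match under one of the widest sites.
Mrpl11: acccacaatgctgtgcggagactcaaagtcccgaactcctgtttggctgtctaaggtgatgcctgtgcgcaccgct

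Of the 51 genes for large subunit proteins, 23 had a promoter site (45.1%, Wilson interval 32.3 to 58.6%). Those with a bacterial counterpart of the same number were Mrpl1, Mrpl3, Mrpl11, Mrpl13, Mrpl15, Mrpl19, Mrpl20, Mrpl21, Mrpl30, Mrpl32, Mrpl35 and Mrpl36. Mrpl11 belongs to the base of the stalk that recruits translation factors, and Mrpl32 is known for its maturation by the mitochondrial m-AAA protease. Those without a bacterial counterpart were Mrpl39, Mrpl40, Mrpl42, Mrpl43, Mrpl44, Mrpl48, Mrpl50, Mrpl53, Mrpl57, Mrpl58 and Mrps30. Mrps30 carries a small subunit name, but its protein sits in the large subunit, and Mrpl44 has a fold of the RNase III family.

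Of the 27 genes for small subunit proteins, 9 had a promoter site (33.3%, Wilson interval 18.6 to 52.2%). Mrps5, Mrps7, Mrps9, Mrps15, Mrps18b and Mrps18c were those with a bacterial counterpart. Mrps27, a pentatricopeptide repeat protein, Mrps31 and Mrps33 were those without one. By origin, 18 of 44 genes with a bacterial counterpart of the same number had a site (40.9%), and 14 of the other 34 did (41.2%). Mrpl47, Mrpl55, Mrps24 and Mrps28 have a bacterial counterpart under another number and no site. With these counted as well, a change made after their values were seen, the shares were 18 of 48 (37.5%, Wilson interval 25.2 to 51.6%) and 14 of 30 (46.7%, 30.2 to 63.9%). The intervals of each split overlapped, and neither split was tested.

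**Figure D1:**
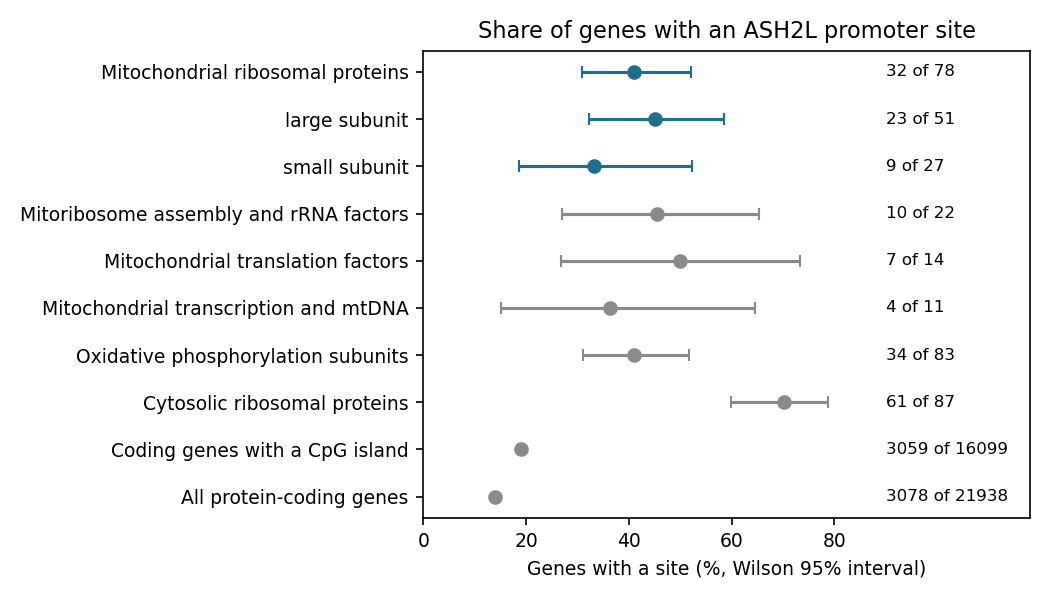
Share of genes with an ASH2L site centred within 1 kb of a TSS, in percent, for the mitochondrial ribosomal protein genes and their subunits (blue) and for other gene lists (grey). Bars are Wilson 95% intervals and the counts stand at the right. The 78 genes lie at 41.0%, beside 14.0% for all protein-coding genes and 70.1% for cytosolic ribosomal protein genes.

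The 46 genes without a site were 28 of the large subunit and 18 of the small subunit. Places in the ribosome are background here and were not compared between genes with and without a site. In the large subunit, the genes without a site included Mrpl10 and Mrpl12 of the factor-binding stalk, and Mrpl17, Mrpl22, Mrpl23, Mrpl24, Mrpl45 and Mrpl47 around the exit of the peptide tunnel. The others were Mrpl2, Mrpl4, Mrpl9, Mrpl14, Mrpl16, Mrpl18, Mrpl27, Mrpl28, Mrpl33, Mrpl34, Mrpl37, Mrpl38, Mrpl41, Mrpl46, Mrpl49, Mrpl51, Mrpl52, Mrpl54, Mrpl55 and Mrps18a. In the small subunit, Mrps12, which contributes to the decoding centre, had no site. Nor had Mrps2, Mrps6, Mrps10, Mrps11, Mrps14, Mrps16, Mrps17, Mrps21, Mrps22, Mrps23, Mrps24, Mrps25, Mrps26, Mrps28, Mrps34, Mrps35 and Mrps36, the last of which is now assigned to the 2-oxoglutarate dehydrogenase complex. These absences were not near misses in position. None of the 46 genes had a site within 3 kb, and the distance from their TSSs to the nearest site had a median of 66542 bp. It ran from 6357 bp for Mrpl45 to 1024423 bp for Mrpl16.

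Genes for other parts of mitochondrial gene expression were counted the same way. Of 22 genes for mitoribosome assembly and ribosomal RNA modification, 10 had a site (45.5%): Ddx28, Dhx30, Eral1, Fastkd2, Gtpbp10, Mettl15, Mrm3, Mterf3, Mtg1 and Ybey. Of 14 genes for mitochondrial translation factors, 7 had a site (50.0%), among them the elongation factor genes Gfm1 and Guf1 and the initiation factor gene Mtif2. The others were Gfm2, which acts in ribosome recycling, Lrpprc and Slirp, whose products bind mitochondrial messages, and Taco1. Of 11 genes for mitochondrial transcription and DNA maintenance, 4 had a site (36.4%): Polg2, Ssbp1, Tfb2m and Twnk. Twnk shares the site counted for Mrpl43, and Ndufs6, a complex I subunit gene, shares that of Mrpl36. Of 5 mitoribosome subunits with other names, Chchd1 and Ptcd3 had a site, and Dap3, Aurkaip1 and Gadd45gip1 had none. Among genes for oxidative phosphorylation subunits 34 of 83 had a site (41.0%, Wilson interval 31.0 to 51.7%). Genes for the cytosolic ribosome had a site in 61 of 87 cases (70.1%, 59.8 to 78.7%), so that their interval lay above that of the mitochondrial ribosome. Apart from the width and offset of the sites, promoter features were not compared between these lists, and no test between them was run.

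The 32 genes had 34 sites, since Mrpl15 and Mrps9 had a pair each. This was 6.25% of the bound genes (Wilson interval 1.73 to 20.1%), beside 14.8% of all bound protein-coding genes with 2 or more sites. The sites of Mrpl15 lay at chr1:4785609-4785860 and chr1:4785348-4785580. The first, 252 bp wide, was centred 4 bp downstream of a TSS, and the second, 233 bp wide, was centred 228 bp downstream in an intron. The sites of Mrps9, whose product sits in the small subunit head, lay at chr1:42851427-42851640 and chr1:42851910-42852112. Their centres were 249 and 726 bp downstream of the TSS, both in an intron, and neither covered a TSS of the gene.

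The sites were centred near annotated start sites. The median offset from the site centre to the nearest TSS of the gene, positive downstream, was -2.50 bp (95% order-statistic interval -32.0 to 59.0 bp, n = 34), with quartiles at -37.5 and 72.2 bp. Measured from the first annotated start of each gene alone, the median was 129 bp, with no value over all pairs to set beside it. To the nearest TSS, the median for all 3640 pairs of a protein-coding gene and its site was 50.0 bp, with quartiles at -61.0 and 220 bp. Without regard to direction, the median distance was 60.0 bp for the mitochondrial ribosomal protein genes and 152 bp for all pairs. The centre lay within 50 bp of a TSS for 16 of 34 sites (47.1%, Wilson interval 31.5 to 63.3%), beside 23.6% of all pairs, and within 100 bp for 22 of 34 (64.7%), beside 37.7%. A TSS of the gene was covered by 25 of the 34 sites. The median number of annotated TSSs was 3.50 for the bound ribosomal protein genes and 5.00 for all bound protein-coding genes, and the part of TSS number in these distances was not tested. The sites of oxidative phosphorylation genes had a median distance of 85.0 bp (n = 37), and those of cytosolic ribosomal protein genes of 105 bp (n = 73).

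**Figure D2:**
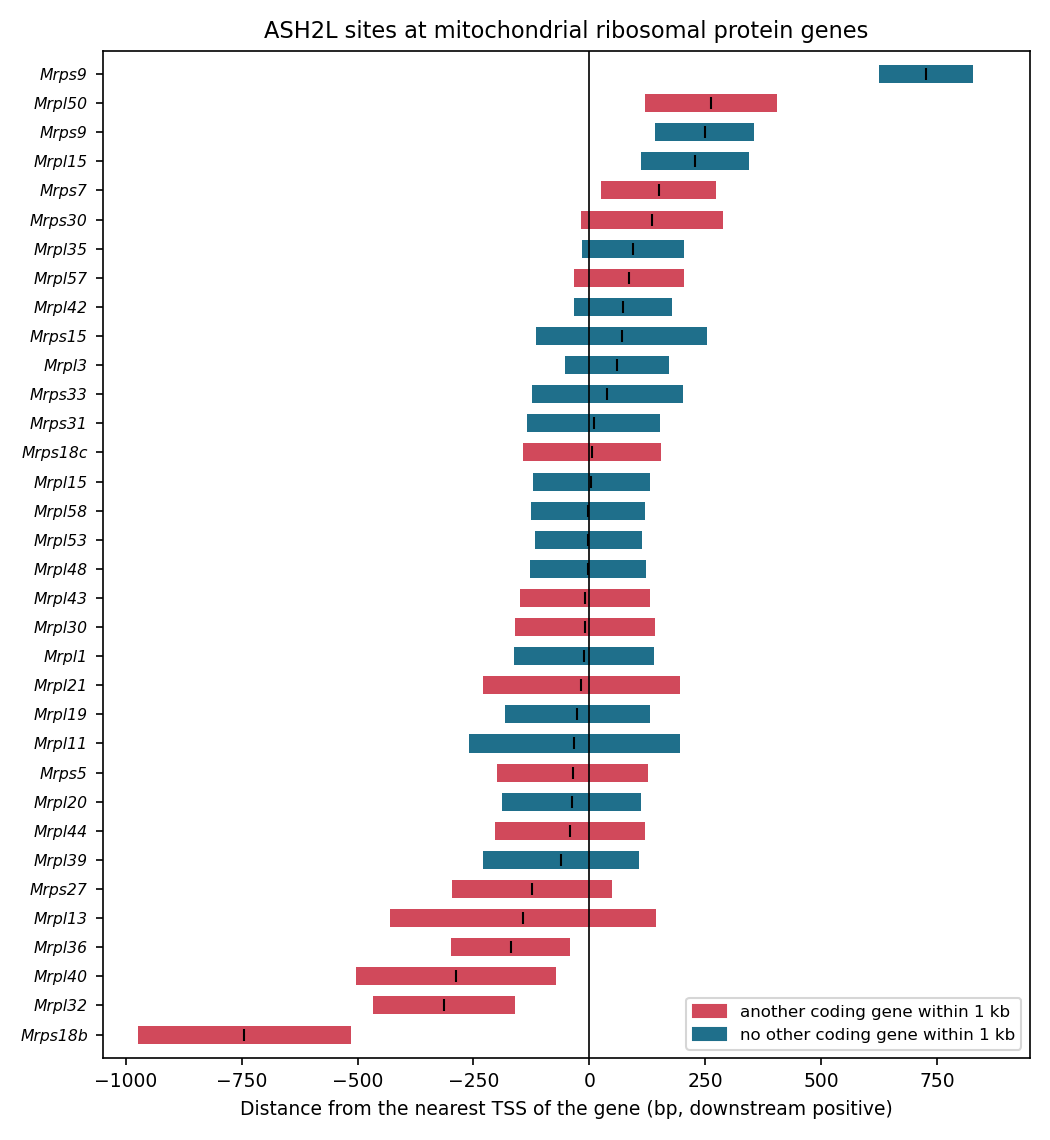
The 34 ASH2L sites of 32 mitochondrial ribosomal protein genes, drawn to scale as bars from start to end by their distance in bp from the nearest TSS of the gene (vertical line, downstream positive). Black ticks mark the centres and red marks sites with another protein-coding gene within 1 kb. The centres run from -744 bp (Mrps18b) to 726 bp (Mrps9), and 25 of the bars cross the line.

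The sites centred closest to a TSS belonged to Mrpl53, Mrpl58, Mrpl48, Mrpl15 and Mrps18c. That of Mrpl53, at chr6:83109002-83109234, was 233 bp wide and centred 2 bp upstream (offset -2 bp) in coding sequence. That of Mrpl58, at chr11:115403627-115403872, was 246 bp wide and also had an offset of -2 bp, and its centre was the only one outside any annotated gene. The site of Mrpl48, at chr7:100582987-100583239, was 253 bp wide and had an offset of -3 bp from an internal TSS but lay 25188 bp downstream of the first annotated start of the gene. The site of Mrps18c, at chr5:100798484-100798782, was 299 bp wide and had an offset of 6 bp.

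Farthest upstream were the sites of Mrps18b, Mrpl32 and Mrpl40. The site of Mrps18b, at chr17:35916903-35917362, was centred 744 bp upstream (offset -744 bp) and 63 bp upstream of a TSS of Ppp1r10 (offset -63 bp), which encodes a protein phosphatase 1 regulatory subunit. The site of Mrpl32, at chr13:14613326-14613631, was 306 bp wide, had an offset of -314 bp and was centred 239 bp inside Psma2, a proteasome subunit gene. The site of Mrpl40, at chr16:18876933-18877365, had an offset of -287 bp and was centred 83 bp downstream of a TSS of Hira, a histone chaperone gene. Farthest downstream were both sites of Mrps9, the second site of Mrpl15 and that of Mrpl50, which was 284 bp wide and lay at chr4:49520689-49520972 with an offset of 262 bp in an intron.

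Divergent promoters, in which another gene starts on the opposite strand up to 1 kb upstream, were found at 32 of the 78 genes (41.0%). Among genes with an ASH2L site, 16 of 32 had such a partner (50.0%, Wilson interval 33.6 to 66.4%). Among genes without a site, 16 of 46 did (34.8%, 22.7 to 49.2%). With the first annotated start of each gene alone, the counts were 9 of 32 and 11 of 46. The same comparison over all protein-coding genes gave 36.7% of those with a site and 15.2% of those without. Read in the other direction, 28.2% of protein-coding genes with a divergent partner and 10.9% of those without had a site. The intervals of the bound and unbound ribosomal protein genes overlapped, and the difference was not tested. The spacing of a pair was the smallest over all annotated TSSs of both genes, so it need not be that of their main starts. It had a median of 56.0 bp (29 to 175 bp) for the bound genes, 61.0 bp (3 to 935 bp) for the unbound genes and 106 bp for all bound protein-coding genes.

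The site was not always on the side of the ribosomal protein gene. Its place was read from the TSS of each gene that lay nearest to the site centre. In 16 pairs the ribosomal protein gene had a site. Its centre was upstream of both of these nearest TSSs, and so between them, in 6 pairs. It was downstream of the ribosomal protein start in 4 and downstream of the partner start in 5. In the remaining pair, Mrpl48 and Rab6a, the site was at another TSS of Mrpl48, far from Rab6a (offset -24297 bp), and Rab6a had no site. The centres of the 6 sites between the TSSs still lay within the annotated body of a gene of the pair, through another transcript. These 6 sites were those of Mrpl21 with Ighmbp2, a helicase gene, Mrpl43 with Twnk, which encodes the helicase of mitochondrial DNA, Mrpl30 with Mitd1, Mrpl53 with the antisense transcript Ccdc142os, Mrps5 with Zfp661 and Mrps18b with Ppp1r10. The 4 sites on the ribosomal side belonged to Mrpl50 with Zfp189, Mrpl57 with Ska3, Mrps7 with Gga3 and Mrps18c with Helq. The 5 sites on the partner side were those of Mrpl13 with Mtbp, Mrpl32 with Psma2, Mrpl36 with Ndufs6, Mrpl40 with Hira and Mrps27 with Ptcd2. The counts depend on the start sites taken. With the pair of divergent TSSs that lie closest to each other, 2 sites were between the starts, 7 on the ribosomal side and 6 on the partner side. Some partners also act in mitochondria: Ndufs6 encodes a subunit of complex I, and Ptcd2 a pentatricopeptide repeat protein of mitochondrial RNA processing.

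In all, 7 of the 34 sites (20.6%, Wilson interval 10.3 to 36.8%) were nearer to a TSS of another gene than to one of the ribosomal protein gene, beside 17.2% of all pairs. Besides the 3 sites far upstream, they were the following. The site of Mrpl13, at chr15:55557206-55557778, had an offset of -143 bp and was centred 84 bp inside Mtbp. The site of Mrpl36, at chr13:73328214-73328472, was 259 bp wide, had an offset of -170 bp and lay 109 bp inside Ndufs6, centred in its coding sequence. The site of Mrps27, at chr13:99344489-99344835, was 347 bp wide, had an offset of -124 bp and lay 43 bp inside Ptcd2, also centred in coding sequence. The site of Mrps7, at chr11:115603951-115604199, was 249 bp wide, had an offset of 150 bp and lay upstream of Gga3 (offset -24 bp). With a site given only to the gene with the nearest TSS, 25 of the 78 ribosomal protein genes had a site, and the share over all protein-coding genes was 11.8%. A site between 2 gene starts cannot be assigned to either gene from its position.

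Another protein-coding gene had a TSS within 1 kb of the centre of 16 of the 34 sites (47.1%, Wilson interval 31.5 to 63.3%). Over all pairs of a protein-coding gene and its site this share was 25.5% (928 of 3640). Apart from the divergent pairs, these sites were those of Mrpl44, whose 5′ end overlaps that of Wdfy1, and of Mrps30, which lies beside B430218F22Rik.

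Among the pairs without a site, Mrpl46 and Mrps11, whose products sit in different subunits, form a pair with each other. Their closest divergent start sites lie 30 bp apart. By their first annotated starts, at chr7:78783531 (Mrpl46, minus strand) and chr7:78783119 (Mrps11, plus strand), these genes overlap at their 5′ ends. Whether they share a promoter was not tested. Mrpl49 starts 59 bp from Fau, which encodes a cytosolic ribosomal protein, and Mrps12 starts 172 bp from Sars2, the gene of the mitochondrial seryl-tRNA synthetase. Mrpl18 starts 37 bp from Tcp1, a chaperonin subunit gene. These spacings, between the closest divergent TSSs, lay within the range of the bound genes (29 to 175 bp). That of Mrps12 lay above their upper quartile of 81.5 bp.

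The median width was 300 bp (95% order-statistic interval 252 to 325 bp, n = 34), with quartiles at 247 and 328 bp. The 3168 sites of all protein-coding promoters had a median of 305 bp and quartiles at 232 and 425 bp. Just 1 site of the mitochondrial ribosomal protein genes was wider than 500 bp (2.94%, Wilson interval 0.521 to 14.9%), beside 540 of 3168 (17.0%). None of the 34 had the minimum width of 200 bp, for which the Wilson interval reaches 10.2%, beside 9.25% of all promoter sites. The widths of oxidative phosphorylation gene sites had a median of 259 bp (n = 37) and a maximum of 618 bp, and those of cytosolic ribosomal protein gene sites a median of 319 bp (n = 73) and a maximum of 1497 bp. Width is the length of the called interval and gives no measure of signal height.

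**Figure D3:**
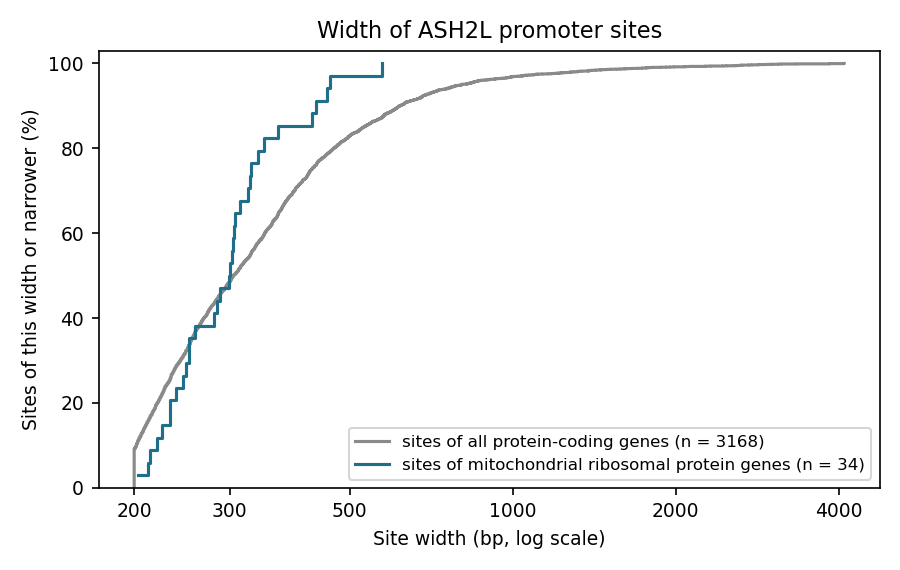
Cumulative share of ASH2L promoter sites, in percent, by site width in bp on a log axis, for the 34 sites of mitochondrial ribosomal protein genes (blue) and the 3168 sites of all protein-coding genes (grey). The curves cross near the medians of 300 and 305 bp, and the blue curve ends at 573 bp while the grey curve runs to 4095 bp.

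The widest sites were those of Mrpl13 (573 bp), Mrps18b (460 bp), Mrpl11 (455 bp), Mrpl40 (433 bp) and Mrpl21 (426 bp). Those of Mrpl13 and Mrpl40 lay on the partner side of a divergent pair. The site of Mrpl11, at chr19:4962071-4962525, had an offset of -32 bp and no other coding gene within 1 kb. The site of Mrpl21, at chr19:3282825-3283250, had an offset of -17 bp and covered the starts of Mrpl21 and Ighmbp2, which are 38 bp apart. Sites with another coding gene within 1 kb had a median width of 306 bp (order-statistic interval 281 to 426 bp, n = 16). The others, which included both sites of Mrps9 and both of Mrpl15, had a median of 252 bp (225 to 314 bp, n = 18). These intervals overlapped, and the difference was not tested.

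The narrowest sites were both sites of Mrps9 (203 and 214 bp) and those of Mrpl42 (212 bp), Mrpl35 (220 bp) and Mrpl3 (225 bp). The site of Mrpl42, at chr10:95501748-95501959, had an offset of 73 bp. That of Mrpl35, at chr6:71823559-71823778, had an offset of 94 bp, and that of Mrpl3, at chr9:105053248-105053472, of 59 bp. All of these were centred downstream of the TSS and had no other coding gene within 1 kb.

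The remaining sites lay between these extremes. Those of Mrpl1, Mrpl19, Mrpl20, Mrpl30, Mrpl39, Mrpl43, Mrpl44 and Mrps5 were centred upstream of the TSS, from Mrpl39 (offset -61 bp) to Mrpl43 (offset -9 bp). Those of Mrpl57, Mrps15, Mrps30, Mrps31 and Mrps33 were centred downstream, from Mrps31 (offset 10 bp) to Mrps30 (offset 136 bp). By annotation, 18 of the 34 centres lay in an untranslated region, 10 in an intron and 5 in coding sequence, of either gene where a pair overlapped.

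Every one of the 78 genes had a CpG island in the 1 kb around a TSS, beside 73.4% of all protein-coding genes. An island was a stretch that spanned 200 bp or more, had over 50% GC and reached an observed to expected CpG ratio above 0.6. Against protein-coding genes with such an island, of which 19.0% had an ASH2L site, the share of 41.0% stood higher. All 34 sites overlapped an island, beside 92.0% of all promoter sites, and with islands of 500 bp or more required, 77 of the 78 genes still had one. Within the sites the median GC content was 65.0% and the median CpG ratio 0.835, close to the 66.5% and 0.878 of all promoter sites.

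Within 500 bp of the gene start, the median CpG ratio was 0.708 for the 32 genes with a site and 0.725 for the 46 without, and the median GC content was 54.6% and 56.0%. Among all protein-coding genes the median ratio was 0.816 for those with a site and 0.467 for those without, and 0.646 for those without a site that had an island, as all the ribosomal protein genes did. The lowest value among the bound genes, 0.0567, came from Mrpl35, whose first annotated start lies 3300 bp upstream of the site centre. Within the Mrpl35 site the ratio was 0.886. For the genes with a site the window at the gene start thus does not always show the promoter that carried the site.

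**Figure D4:**
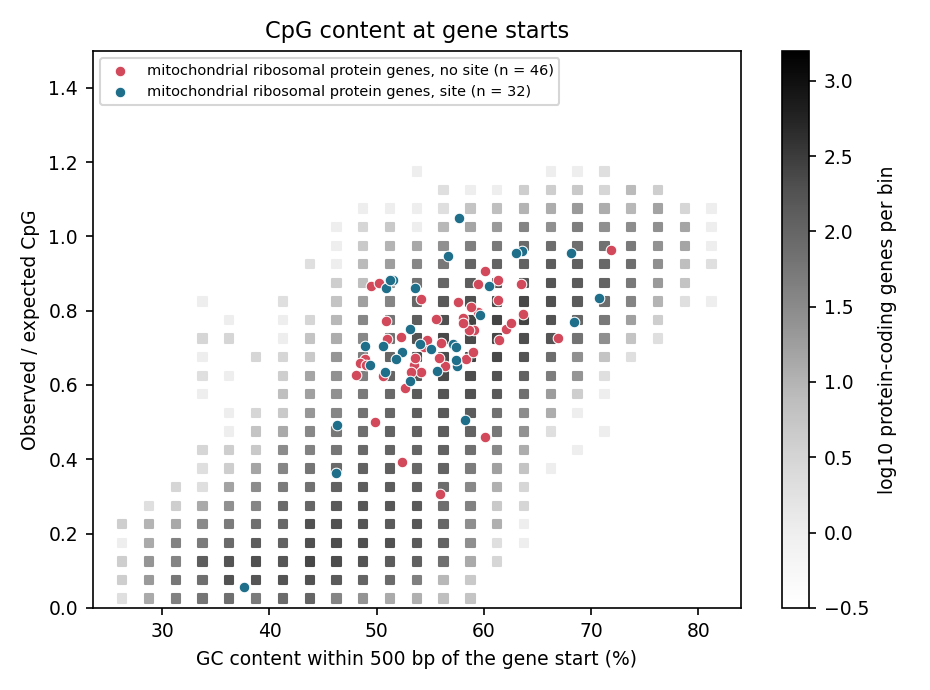
GC content in percent and observed to expected CpG ratio within 500 bp of the gene start, for mitochondrial ribosomal protein genes with (blue, n = 32) and without (red, n = 46) an ASH2L site, over the number of all protein-coding genes per bin (grey, log10). Blue and red points mix, with median ratios of 0.708 and 0.725, and the lowest blue point is Mrpl35.

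Short motifs of 8 kinds were searched on both strands from 250 bp upstream to 50 bp downstream of each gene start. The ETS core CCGGAAG was found at 8 of 32 genes with a site (25%, Wilson interval 13.3 to 42.1%) and at 19 of 46 without (41.3%, 28.3 to 55.7%), beside 10.8% of all protein-coding promoters and 14.2% of those with a CpG island. The YY1 motif AAGATGGCG was found at 9.38% of genes with a site (3.24 to 24.2%) and 8.70% of genes without (3.43 to 20.3%), beside 1.70% of all promoters, 2.28% of those with an island and 3.90% of those of all bound protein-coding genes. The NRF1 motif GCATGCGC was found at 6.25% (1.73 to 20.1%) and 10.9% (4.73 to 23.0%), beside 3.71%, 4.56% and 4.91%. The interval of the bound ribosomal protein genes held the share of all bound protein-coding genes for both motifs. At least 1 of these 3 motifs was present at 11 of 32 genes with a site (34.4%), 24 of 46 without (52.2%) and 15.1% of all promoters. The windows stand at the gene start and not at the TSS that carried the site. The ETS matches inside the sites of Mrpl42 and Mrpl48, the latter printed above, fall outside these windows and are not among the 8. For the ETS core the order of the unbound and bound genes was the reverse of that over all protein-coding genes, where it was found at 21.5% of those with a site and 9.02% of those without. The intervals of the bound and unbound ribosomal protein genes overlapped, and the difference was not tested.

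The SP core CCCGCCC was found at 31.2% of genes with a site and 39.1% without (all promoters 31.5%, those with an island 41.5%, those of bound protein-coding genes 41.1%). For the NFY motif CCAATNNG the shares were 15.6%, 17.4% and 16.1%, with 17.4% at island promoters, and for the E-box CACGTG 6.25%, 6.52% and 7.75%, with 9.50% at island promoters. The CRE motif TGACGTCA was found at none of the 32 genes with a site, for which the Wilson interval reaches 10.7%, at 4.35% of those without, at 2.43% of all promoters and at 2.96% of those with an island. The ZBTB33 motif TCTCGCGAG was found at Mrpl40 and Mrpl57 (6.25%, Wilson interval 1.73 to 20.1%), at none of the 46 genes without a site (up to 7.71%), at 0.898% of all promoters, at 1.22% of those with an island and at 2.11% of those of all bound protein-coding genes, a share within the interval. With a window of 100 bp on either side of the gene start, the ETS core was found at 37.5% of genes with and 41.3% of genes without a site, beside 9.57% of all promoters. A match is a string of letters and does not show that a factor was bound. None of the 8 motifs contains another.

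**Figure D5:**
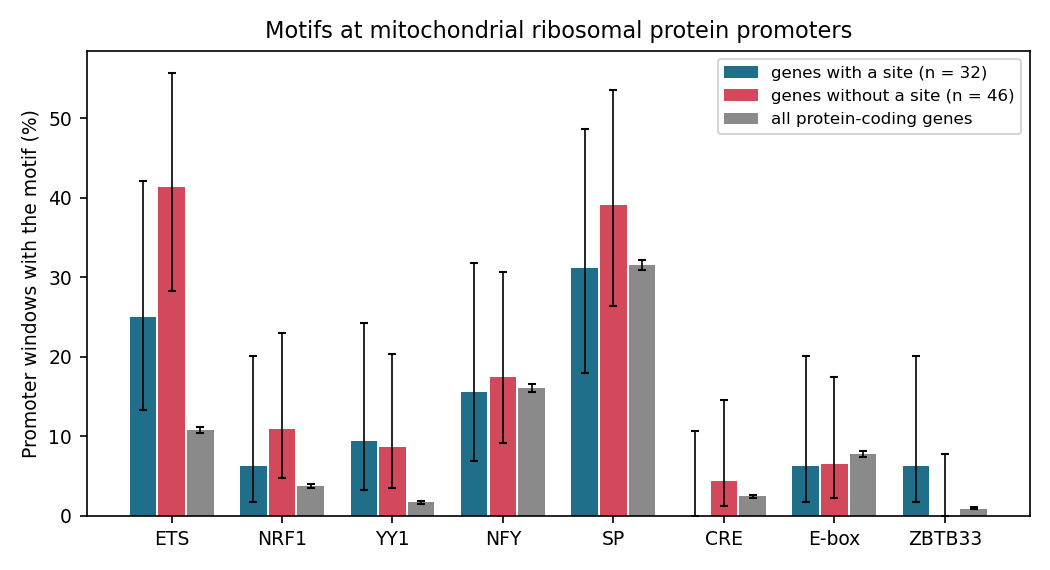
Share of promoter windows, in percent, that hold each of 8 motifs, for mitochondrial ribosomal protein genes with (blue, n = 32) and without (red, n = 46) an ASH2L site and for all protein-coding genes (grey), with Wilson 95% intervals. The ETS bars stand at 25% and 41.3%, beside 10.8% for all protein-coding genes.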

How the data were processed

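The authors performed ChIP-seq on iMEF cells, with 4 libraries precipitated by HA-selective antibodies and 4 input libraries. The submitters' processing notes name BWA, SAMtools, MACS2, deepTools and DESeq2 and the build mm10. Versions are not given in the sources used here. The deposited values used here are genomic positions in bp of 1 list of sites compiled over all samples, with no signal, count or score and no column per sample. Depth, replicate spread, height and the change after dTAG were therefore not analysed, and the planned comparison of untreated and dTAG-treated libraries was not run.

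Starts were read as counted from 0, since the smallest width is then 200 bp, and are printed counted from 1. TSSs of all transcripts came from GENCODE mouse release 21 (mm10), and sequence from RefSeq GRCm38.p6. A gene had a site when a site centre lay within 1 kb of a TSS. Offsets were taken to the nearest TSS of the gene. Shares carry Wilson intervals and medians carry binomial order-statistic intervals, at 95%. No p-value was computed, since genes and sites are not replicates. Genes, gene lists and motifs were chosen with earlier results of these data known. Every bound gene was named. Named in full were the 5 with the widest, the 5 with the narrowest and the 5 with the most closely centred sites, the 3 farthest on each side, genes with 2 or more sites and genes whose site was nearer another gene. Sequences were shown for 7 of these. Lists beside the genes covered mitoribosome subunits with other names, assembly and ribosomal RNA factors, translation factors, mitochondrial transcription, cytosolic ribosomal proteins and oxidative phosphorylation subunits. Alternatives changed the window, the TSSs, the site list, the assignment of sites, the partner definition, the CpG and motif windows and the background. The steps were tested on simulated sites (Python 3.11.15, NumPy 2.4.6, pandas 2.3.3, SciPy 1.17.1, matplotlib 3.10.9).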

Additional observations from a re-analysis of the deposited data

How the results depend on the processing

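Of 49 alternatives over 24 results, 45 left the value within its counting error or within 1.5 times the count. With the start of each gene alone in place of all TSSs, 9 of the 32 genes with a site had a divergent partner (11 of 46 without), in place of 16 (16 of 46). With the same choice the median offset was 129 bp in place of -2.50 bp. In divergent pairs, the TSSs closest to each other placed 2 sites between the starts and 7 on the ribosomal side. With the TSSs nearest to the site these counts were 6 and 4. The choice between these readings was made after seeing the data. The number of genes with a site ran from 25 with nearest genes alone to 32 over the alternatives on the same annotation. It was 28 of the 69 genes matched to a RefSeq gene start (13.6% of all matched genes), a choice made after seeing the data. No paired analysis was possible because the list gives positions only, with no value per replicate. For the same reason no replicate could be left out and no stricter peak threshold applied. The annotation used is an earlier release than that of the study.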
